A study of Mus musculus with 2 samples.

Results

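A set of 10 genes of glucose uptake, glycolysis and lactate formation was described in costal-cartilage-derived stem cells (CDSCs) of the mouse: Slc2a1, Hk1, Hk2, Pfkl, Pfkp, Aldoa, Pgk1, Eno1, Pkm and Ldha. They were taken by their symbols, with no measured value in the rule, and all 10 genes were found among the 21849 features measured. They filled 11 rows, because Aldoa also stood on a second row with another identifier (ENSMUSG00000114515), which held 14 counts in one library and 27 in the other and was left aside.

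Droplet-based single-cell RNA sequencing compared the groups Primary CDSCs and Cultured CDSCs, with 1 library each. Per the study's methods, rib cartilage came from newborn C57BL/6J mice, less than a week old, of the CD45.1 or the ZsGreen line, was dissociated with collagenase, and gave CDSCs as the cells sorted as CD45- and CD51+. The cultured cells were grown in minimum essential medium with fetal bovine serum. The methods give passages 2 to 3 in a wording that could cover both groups, and it was read here as that of the cultured cells. For both libraries 20000 viable cells had been loaded. The labels name bone marrow as the tissue of both libraries and these stem cells as the cell type, and the number of mice pooled was not given in the sources used here.

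Glycolysis splits a glucose molecule into pyruvate and yields ATP without oxygen. Transporters bring glucose into the cell, hexokinase traps it as a phosphate, phosphofructokinase commits it to the pathway, aldolase splits the sugar, and the later enzymes recover ATP before lactate dehydrogenase turns pyruvate into lactate. Cartilage has no blood vessels, and its cells are known to rely heavily on this route, while cells put into culture meet ample glucose, serum and oxygen.

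The files held raw counts of unique molecular identifiers (UMIs), the tags that mark each captured transcript. Barcodes needed 500 or more detected genes, 1000 or more UMIs and no more than 10% of UMIs from mitochondrial genes, which left 11746 primary cells with a median of 10026.5 UMIs and 5338 cultured cells with a median of 56864.5. The filter removed 150 primary barcodes and 5460 cultured ones (50.6%), of which 5336 had under 1000 UMIs. Between the libraries 32 barcodes were shared, 15 of them among the cells used. All 12 chondrocyte markers were lower in the cultured library, with a summed level of 93450 CPM (counts scaled to the same library total of UMIs) in primary and 1030 CPM in cultured CDSCs. The primary library thus carried the cartilage genes that its cell type calls for, and the cultured library hardly did. The reporter ZsGreen had 60957 counts in primary and 0 in cultured CDSCs, so the donor line and the culture cannot be told apart in any difference below.

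To show the sequence in front of genes that lay on either side of the difference, the 250 bases before a RefSeq start are printed. This was done for 2 genes that were lower (Slc2a1, Hk2) and 2 that were higher (Eno1, Ldha) in the cultured library. Eno1 and Ldha had further RefSeq starts, and the start shown was chosen by hand. The sequences are those of RefSeq on GRCm38.p6, given from 5′ to 3′ on the strand of the gene. Capitals mark ACGTG or GCGTG on either strand (CACGT or CACGC where the match lies on the other strand), the core letters of the hypoxia response element. ACGTG overlaps with the E-box CACGTG, which reads the same on both strands.
Slc2a1 (chr4:119108495-119108744, plus strand): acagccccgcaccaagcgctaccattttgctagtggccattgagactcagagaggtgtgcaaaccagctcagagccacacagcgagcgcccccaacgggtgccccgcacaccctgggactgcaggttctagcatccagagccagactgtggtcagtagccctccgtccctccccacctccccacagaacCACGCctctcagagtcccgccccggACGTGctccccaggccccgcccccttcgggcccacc
Hk2 (chr6:82774455-82774704, minus strand): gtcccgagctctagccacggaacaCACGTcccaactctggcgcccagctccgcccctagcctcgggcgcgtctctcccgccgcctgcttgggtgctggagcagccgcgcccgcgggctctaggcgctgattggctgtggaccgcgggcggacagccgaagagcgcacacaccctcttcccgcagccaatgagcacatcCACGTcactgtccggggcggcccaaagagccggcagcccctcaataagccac
Eno1 (chr4:150236947-150237196, plus strand): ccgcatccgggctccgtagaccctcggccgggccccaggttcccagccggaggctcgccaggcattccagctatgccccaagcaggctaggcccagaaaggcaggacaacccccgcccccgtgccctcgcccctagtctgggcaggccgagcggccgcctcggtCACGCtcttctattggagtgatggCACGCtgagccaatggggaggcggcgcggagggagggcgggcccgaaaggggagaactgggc
Ldha (chr7:46845554-46845803, plus strand): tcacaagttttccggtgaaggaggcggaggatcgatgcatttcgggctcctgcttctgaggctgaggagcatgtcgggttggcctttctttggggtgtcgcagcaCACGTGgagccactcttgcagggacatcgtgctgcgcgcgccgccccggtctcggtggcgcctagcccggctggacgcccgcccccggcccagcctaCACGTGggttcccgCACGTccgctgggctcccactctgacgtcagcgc
The letters stood 61 and 36 bases before the start in Slc2a1, 226 and 52 in Hk2, and 86 and 62 in Eno1. Ldha held 5 matches, at 145, 144, 48, 47 and 34 bases before the start shown, of which 4 lay in its 2 E-boxes. In the other window of Ldha the only match before the start stood 59 bases from it, and no E-box was found. Over the full windows of 250 bases before and 50 after each RefSeq start, all 10 genes had an entry, and 14 of their 17 windows held a match, in all 10 genes. Of all 32851 promoter windows 43.8% held one, and of the 9451 windows of genes that reached 10 CPM in at least 1 library 64.2% did. An E-box was found in 1 of the 17 windows, against 7.15% of all windows and 10.3% of the 9451. Some of the 17 windows overlapped, as in Aldoa and Eno1. The core letters were therefore common among expressed genes and stood in front of the genes that were lower as well as those that were higher.

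The 10 genes divided at aldolase, with Pfkl as the exception. The cut was drawn with earlier results of these data known, so counts and sums on either side describe the division and are no test. Of the 5 genes that act before it, 4 were lower in the cultured library, and all 5 genes from aldolase onward were higher, where 35.5% and 64.5% of the 9115 genes that reached 10 CPM in at least 1 library were lower and higher. Summed over the cells used, the first 5 were at 567 CPM in primary and 198 CPM in cultured CDSCs (log2 ratio -1.52, interval -1.54 to -1.51), and the later 5 at 1449 and 2914 CPM (1.01, 1.00 to 1.02). Slc2a1 alone was at 320.8 CPM in primary and 44.0 CPM in cultured CDSCs and so made up most of the difference of the first 5. All 10 together took 0.202% of the UMIs in primary and 0.311% in cultured CDSCs. With 1 library per group there was no test, and every interval is an exact 95% counting interval that leaves out the variation between cultures and mice. A lower sum can come from fewer expressing cells or from less RNA per cell, which the sums alone cannot tell apart.

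A difference was called where the CPM differed at least 2-fold. Among the 10, the calls were higher for 3 (Pfkl, Aldoa, Eno1) and lower for 2 (Slc2a1, Hk2), where 27.2% and 12.5% of these 9115 genes were. Without the 2-fold limit, 6 of the 10 were higher, where 64.5% of all genes were, and 4 were lower, where 35.5% were. The shares among the 10 were thus near those of all genes for the higher calls, and the number of genes is small. The log2 ratios of the 10 genes had a median of 0.80, and those of all 9115 genes one of 0.37, with quartiles of -0.33 and 1.08. All 6 higher genes also lay above the median of all genes.

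**Figure D1:**
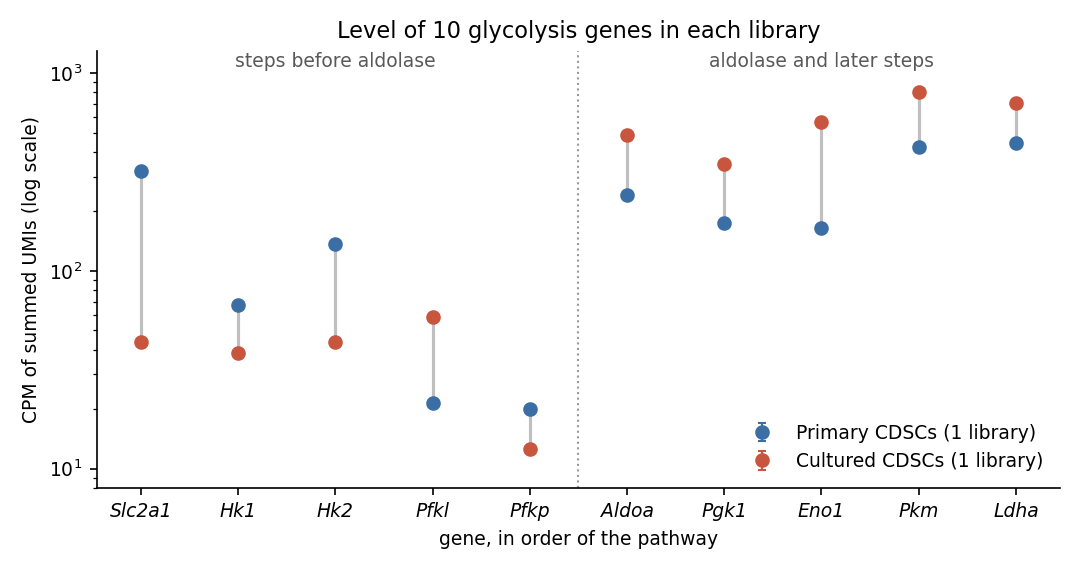
Level of each of the 10 genes in CPM (log axis) in the primary library (blue) and the cultured library (red), in the order of the pathway; bars are 95% counting intervals, mostly smaller than the points. The primary points lie above the cultured ones for Slc2a1, Hk1, Hk2 and Pfkp, and below them for Pfkl and for every gene from Aldoa onward.

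Slc2a1 (ENSMUSG00000028645, chr4:119108711-119137983 on GRCm38) encodes GLUT1, the glucose transporter of most growing cells. It was at 320.8 CPM (317.8 to 323.8) in primary and 44.0 CPM (43.3 to 44.7) in cultured CDSCs. The log2 ratio was -2.87 (-2.89 to -2.84), that is 7.30-fold lower, and 3.62% of the genes tested had a lower ratio. It was the gene of the 10 with the largest difference. Among glucose transporters it held 98.8% of the UMIs of Slc2a1 to Slc2a4 in primary and 98.1% in cultured CDSCs, and the other 3 were scarce in both. The muscle and fat transporter Slc2a4, singled out after its values were seen, had 377 counts in primary and 13 in cultured CDSCs.

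Hexokinase adds the phosphate that keeps glucose in the cell, and Hk2 is the form that is induced in cells with a high demand. Hk2 (ENSMUSG00000000628, chr6:82725025-82774454) was at 137 CPM (135 to 139) in primary and 43.8 CPM (43.1 to 44.5) in cultured CDSCs, 3.14-fold lower (log2 -1.65, -1.68 to -1.62). Hk1 (ENSMUSG00000037012, chr10:62268855-62379908), the form found in nearly all tissues, was at 67.2 CPM and 38.7 CPM (log2 -0.80, -0.84 to -0.76). Both were lower, Hk2 more than Hk1, and their intervals did not overlap. Hk2 accordingly made up 66.9% of the hexokinase UMIs (66.4 to 67.5) in primary and 52.7% (52.1 to 53.3) in cultured CDSCs. Hk3 and Hkdc1 were each below 0.4% of them in both libraries.

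Phosphofructokinase was the exception among the early steps. Pfkl (ENSMUSG00000020277, chr10:77986947-78010083), the liver-type subunit, was at 21.6 CPM (20.8 to 22.3) in primary and 58.6 CPM (57.7 to 59.4) in cultured CDSCs, 2.72-fold higher (log2 1.44, 1.39 to 1.498). Pfkp (ENSMUSG00000021196, chr13:6579768-6648777), the platelet-type subunit, was at 20.03 CPM and 12.6 CPM (log2 -0.66, -0.73 to -0.59). The paralogues therefore went opposite ways. In the primary library Pfkl, Pfkp and the muscle-type Pfkm shared the UMIs of the family at 36.8%, 34.2% and 28.9%, and in the cultured library at 68.2%, 14.7% and 17.0%. The summed level of the family was 58.5 CPM in primary and 85.8 CPM in cultured CDSCs.

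Aldolase cuts the sugar into its 3-carbon pieces. Aldoa (ENSMUSG00000030695, chr7:126795234-126800751) was at 244 CPM in primary and 490 CPM in cultured CDSCs (log2 1.01, 0.99 to 1.02), which put it just past the 2-fold limit. Under the other settings its log2 ratio ran from 0.79 to 1.14, and 5 of 8 stayed past the limit. Its brain-type paralogue Aldoc went the other way, from 45.3 to 2.10 CPM (log2 -4.43, -4.54 to -4.32), and its share of the aldolase UMIs was 15.7% in primary and 0.427% in cultured CDSCs.

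Pgk1 makes the first ATP of the payoff phase. Pgk1 (ENSMUSG00000062070, chrX:106187100-106203699) was at 175 CPM in primary and 347 CPM in cultured CDSCs (log2 0.98, 0.96 to 1.00), just short of the 2-fold limit. Eno1 (ENSMUSG00000063524, chr4:150236721-150248879) encodes the enolase of most tissues, and it was at 164 CPM (162 to 166) and 564 CPM (562 to 567). Its log2 ratio of 1.78 (1.76 to 1.80), or 3.44-fold, was the highest of the 10 genes. Of the 50-base stretches in the last 500 bases of its transcripts, 68.1% also occurred in Eno1b, a near copy that is a feature of its own, so reads could have been divided between them or dropped. Eno1b was at 10.0 CPM in primary and 2.43 CPM in cultured CDSCs, and its own direction is uncertain for the same reason. As counted, nearly all UMIs of this pair of rows were on Eno1.

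Pkm makes the second ATP and pyruvate. Pkm (ENSMUSG00000032294, chr9:59656368-59679375) was at 424 CPM in primary and 805 CPM in cultured CDSCs (log2 0.92, 0.91 to 0.94). The counts do not separate its splice forms. Ldha (ENSMUSG00000063229, chr7:46841475-46855627), which favours lactate, was at 441 CPM and 709 CPM (log2 0.68, 0.67 to 0.70). Its partner subunit Ldhb was at 119 CPM and 71.0 CPM (log2 -0.75), so Ldha made up 78.7% of the lactate dehydrogenase UMIs in primary and 90.9% in cultured CDSCs. As with aldolase, the common paralogue gained share. For Pkm 19.3%, Ldha 12.8% and Pgk1 7.32% of the 50-base stretches also occurred in annotated genes with no row in the files, and for Aldoa 7.85% in Aldoart1.

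**Figure D2:**
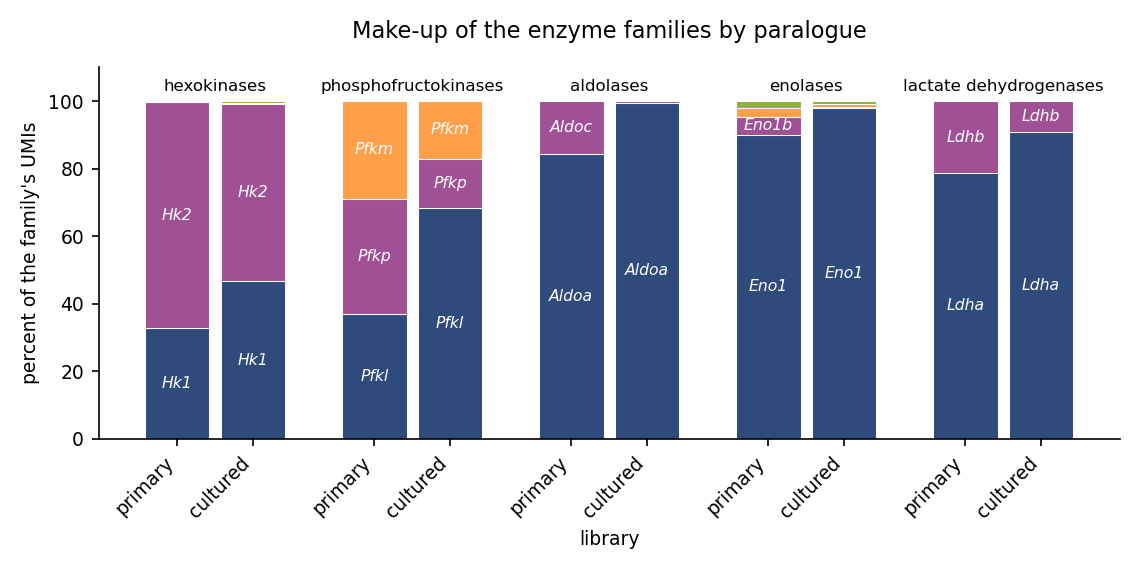
Percent of each enzyme family's UMIs that belonged to each paralogue, in the primary and the cultured library (stacked bars, shares under 5% not labelled). The share of Pfkl goes from 36.8% to 68.2%, Aldoc almost vanishes from the aldolases, and Hk2 gives way in part to Hk1.

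UMIs of a 3′ library are counted per captured transcript end and were not divided by length, and the order of the genes below is of CPM on that scale. In the primary library the order from the highest was Ldha, Pkm, Slc2a1, Aldoa, Pgk1, Eno1, Hk2, Hk1, Pfkl and Pfkp, and only the intervals of Pfkl and Pfkp met. In the cultured library it was Pkm, Ldha, Eno1, Aldoa, Pgk1, Pfkl, Slc2a1, Hk2, Hk1 and Pfkp, with the intervals of Slc2a1 and Hk2 overlapping. Slc2a1 thus moved from the third to the seventh place and Eno1 from the sixth to the third.

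To compare single cells at one depth, each cell was thinned at random to 5000 UMIs, which 10959 primary and 4543 cultured cells allowed (787 and 795 were left out). Slc2a1 then had at least 1 UMI in 58.0% of the primary cells (57.0 to 58.9) and in 19.1% of the cultured ones (17.9 to 20.2). Hk2 had one in 40.0% and 19.7%, and Hk1 in 24.2% and 17.8%. Pfkp was seen in 8.31% and 5.88% of cells, while Pfkl was seen in 10.0% and 24.4%. The share of cells thus moved with the CPM for all 5 early genes. Of the later genes, Aldoa had at least 1 UMI in 64.5% and 85.3%, Pgk1 in 50.5% and 72.2%, and Eno1 in 51.6% and 87.6%. Pkm and Ldha were seen in most cells of both libraries, at 81.6% and 94.4% for Pkm and 77.9% and 92.2% for Ldha. Without thinning the shares for Slc2a1 were 70.4% and 69.1%, at the unequal depths of the libraries. Without thinning the other genes ran from 17.0% to 91.4% in the primary and from 42.4% to 95.6% in the cultured library. No cell type that should lack these genes was at hand to give the share that free RNA alone produces.

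The cells were spread along one broad distribution in each library. A primary cell had a median of 9 UMIs of the 10 genes among 5000 (quartiles 6 and 12) and a cultured cell 14 (10 and 19). From the first 5 genes the medians were 2 and 1, and no UMI of them was seen in 18.4% of primary and 38.5% of cultured cells. From the later 5 genes the medians were 6 and 13, and their distributions overlapped, with the upper decile of primary cells at 13 and the lower decile of cultured cells at 6. Slc2a1 had the highest ratio of variance to mean of the 10 in primary cells, at 2.84, where random sampling alone gives a ratio near 1. In cultured cells the ratio for Slc2a1 was 1.23. The ratio also depends on the mean, which for Slc2a1 was 1.55 UMIs in primary and 0.230 in cultured cells. It therefore does not rank genes or libraries of unlike level by how unevenly a gene is spread.

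**Figure D3:**
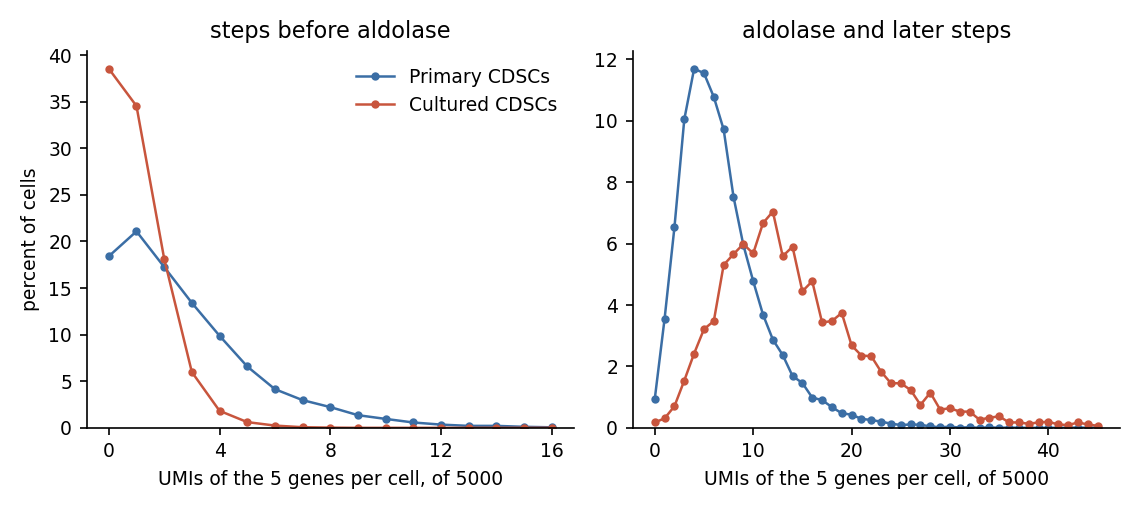
Percent of cells (y axis) by the number of UMIs (x axis) of the 5 genes before aldolase (left) and of the 5 genes from aldolase onward (right), in cells thinned to 5000 UMIs, for the primary (blue) and the cultured library (red). Cultured cells gather at 0 and 1 UMI on the left, and on the right their curve is shifted to more UMIs, with a median of 13 against 6.

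The remaining enzymes and transporters of glycolysis were split in direction, with 6 higher and 7 lower. Of 27 listed, 13 reached 10 CPM in either library, of which 4 passed the 2-fold limit upward and 3 downward, and the median log2 ratio was -0.14. Of all genes with that level 64.5% were higher and 35.5% lower, and 27.2% and 12.5% passed the limit upward and downward. Gpi1, which acts between hexokinase and phosphofructokinase, was higher (86.5 and 177 CPM, log2 1.04). Tpi1 and Pgam1, both enzymes of the later steps, were higher as well, at log2 1.02 and 1.19. Gapdh, which carries out the oxidation step, went from 759 to 1486 CPM (log2 0.97). The lactate exporter Slc16a3 was at 10.1 and 15.1 CPM and the chaperone of these exporters, Bsg, at 605 and 1397 CPM (log2 1.21), while the transporter Slc16a1 was at 64.8 and 26.6 CPM (log2 -1.29). Adpgk, an alternative kinase for glucose, was at log2 -0.68, Pfkm at -0.21 and Bpgm at -0.14. Gpi1 was therefore a further gene ahead of aldolase that was higher. From aldolase onward Aldoc, Ldhb, Slc16a1, Bpgm and, as counted, Eno1b were lower, so the wider list did not keep to the division.

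**Figure D4:**
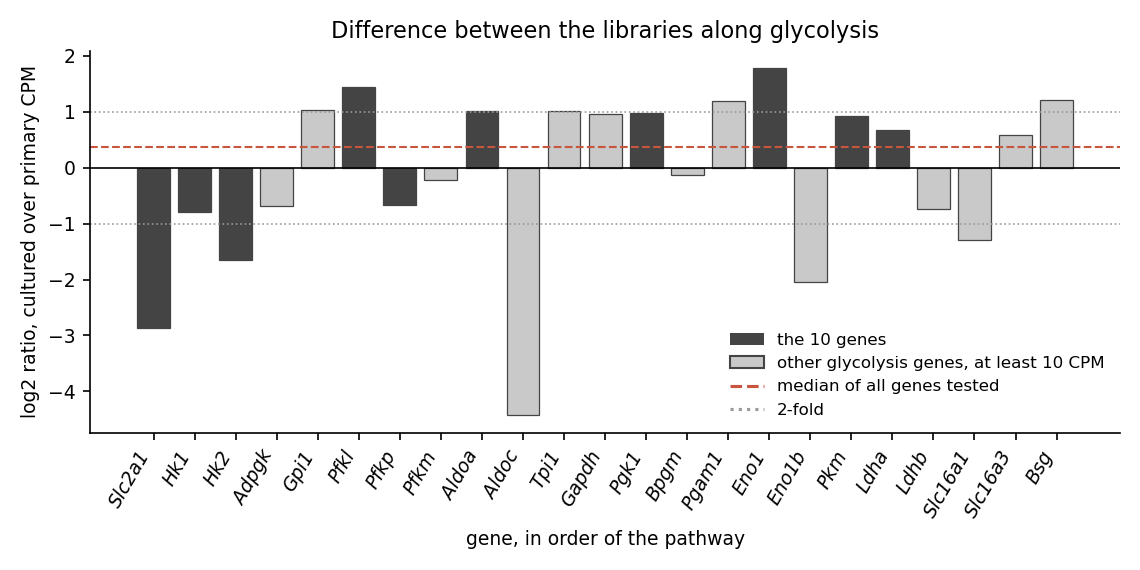
Log2 ratio of cultured over primary CPM for the 10 genes (dark bars) and the 13 other glycolysis genes that reached 10 CPM in at least 1 library (light bars), in the order of the pathway; the dashed line is the median of all genes tested (0.37) and the dotted lines mark 2-fold. Slc2a1 at -2.87 and Aldoc at -4.43 are the longest bars below 0, and Eno1 at 1.78 is the longest above it.

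Among enzymes and sensors that set the pace of the pathway, none was called higher. Of the 7 regulators with at least 10 CPM, 0 passed the 2-fold limit upward and 2 downward, where 27.2% and 12.5% of all genes did. Pfkfb3, which makes the activator of phosphofructokinase, was at 45.4 and 13.3 CPM (log2 -1.77), and Pdp2, a phosphatase that switches on pyruvate dehydrogenase, was at 11.6 and 3.92 CPM (log2 -1.57). Txnip and Arrdc4, whose transcripts rise with glucose in many cells, were at log2 -0.27 and 0.04. The kinases of pyruvate dehydrogenase, Pdk1 and Pdk3, were at log2 -0.50 and 0.31, and the phosphatase Pdp1 at 0.91.

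Of the routes that branch from glycolysis, the pentose phosphate pathway was higher in the cultured library. All 6 of its genes with at least 10 CPM were higher, 5 of them at least 2-fold, where 64.5% and 27.2% of all genes were, and their median log2 ratio was 1.55 beside 0.37. G6pdx, the entry enzyme, was at 4.44 and 37.3 CPM (log2 3.07), and Pgd, the next oxidative step, at 16.9 and 118 CPM (2.80). Taldo1, Rpe and Pgls were at log2 1.71, 1.39 and 1.197, and Tkt at 0.58. The enzymes that make sugar nucleotides for matrix glycans went the other way, with 0 of 7 past the 2-fold limit upward and 4 downward. Of all genes 27.2% and 12.5% passed it upward and downward. Gfpt2, at the start of the hexosamine route, was at 143 and 4.90 CPM (log2 -4.87), and Slc35d1, Uap1 and Gfpt1 were at log2 -1.79, -1.62 and -1.15. Ugdh, which makes the sugar acid of chondroitin and hyaluronan, was at 292 and 224 CPM (log2 -0.39).

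Among 10 glycogen genes, 3 were at least 2-fold higher and 1 was at least 2-fold lower, near the 27.2% and 12.5% of all genes. Gyg, the primer of glycogen, was at 2.11 and 68.5 CPM (log2 5.02), and Gys1, the synthase, at log2 1.70, while the muscle phosphorylase Pygm was at 10.4 and 0.718 CPM (log2 -3.85). Of 19 genes of pyruvate entry and the citric acid cycle, 4 were at least 2-fold higher (among them Dlat, Cs and Sucla2) and 1 was at least 2-fold lower (Pdhb). Of all genes 27.2% and 12.5% were. Without the 2-fold limit 16 of the 19 were higher and 3 lower, where 64.5% and 35.5% of all genes were. Their median log2 ratio, 0.47 beside 0.37 for all genes, was near that of an average gene. Of 7 genes of gluconeogenesis, 2 reached 10 CPM, Pck2 at log2 -0.27 and G6pc3 at -0.09.

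Hif1a and Myc, whose products are known to drive the transcription of glycolysis enzymes, were both lower. Hif1a, the oxygen-regulated factor, was at 348 and 243 CPM (log2 -0.52), although its activity is set mainly at the protein level. Of the 18 genes with at least 10 CPM on a list of the hypoxia pathway and its targets outside glycolysis, 2 were at least 2-fold higher, the peptide hormone gene Adm (1.76 and 42.9 CPM, log2 4.61) and the oxygen sensor Egln1 (1.26). Another 3 were at least 2-fold lower, Ddit4, P4ha2 and Car12, at log2 -1.93, -1.43 and -1.28. Of all genes 27.2% and 12.5% were at least 2-fold higher and lower. The median of the 18 genes was 0.01, with Vegfa at -0.45 and Bnip3 at -0.26. Myc, a growth factor-induced activator of these genes, was at 140 and 24.9 CPM (log2 -2.49), and of the 4 genes with at least 10 CPM on its list Mlxip was also at least 2-fold lower (-1.42), while Max was at -0.66 and Mlx at 0.21.

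Other lists moved between the libraries beside these results. All 7 immediate early genes, which dissociation of tissue is known to switch on, were lower in the cultured library, where 35.5% of all genes were. Their sums were 16809 and 1598 CPM. Of 8 genes of cell division, 7 were at least 2-fold higher in the cultured library, where 27.2% of all genes were. The sums of the 8 were 118 and 362 CPM. The sums of the skeletal muscle markers were 309 and 28.1 CPM, of which Tnnt3 gave 291 and 10.1, those of the haematopoietic markers 6.90 and 22.1 CPM, of the endothelial markers 10.3 and 0.7997 CPM, and of the erythroid markers 5.21 and 2.07 CPM. Hba-a1 among the erythroid markers was at 0 in the cultured library. The part of these lists, and of the chondrocyte markers, in the differences of the glycolysis genes was not tested.

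To see whether the division ran through all cells, each library was clustered without the 10 genes and the metabolic, hypoxia and Myc lists. The marker lists of cell types, immediate early genes and cell division stayed in, so their sums per cluster are not independent of the clustering. Clusters of at least 50 cells were compared by their summed UMIs (10 primary and 8 cultured clusters, named by their 2 leading genes). Clusters share a library and are not replicates. Slc2a1 ran from 69.2 to 576.5 CPM over the primary clusters and from 21.2 to 63.6 CPM over the cultured ones. By these values every cultured cluster lay below every primary cluster for Slc2a1, the only one of the 10 genes for which this held, where 10.6% of all genes showed it. The lowest primary cluster had only 61 counts of it, and its interval (52.9 to 88.9 CPM) covered the highest cultured cluster (61.5 to 65.9 CPM), so that this separation is not resolved. Aldoa, Eno1 and Pkm were the 3 genes for which every cultured cluster lay above every primary one, where 18.3% of all genes showed it. For Eno1 the highest primary cluster was at 234 CPM and the lowest cultured one at 441 CPM, for Pkm at 572 and 608 CPM, and for Aldoa at 342 and 349 CPM, where the intervals of 336 to 348 and 340 to 357 CPM overlapped. The other 6 genes overlapped. Pfkl did so by a small margin, with 15.8 to 37.4 CPM in primary and 36.8 to 70.3 CPM in cultured clusters. At a finer resolution (15 and 13 clusters) Slc2a1 alone stayed apart by its values, again with intervals that met (68.1 to 102 and 63.7 to 68.4 CPM), against 7.49% of all genes below, and 0 of the 10 genes lay above, against 11.1%. The finer clusters held 53 cultured cells led by Lars2 and Cfap157 in which the later genes were low (Ldha 109, Aldoa 83.8 and Eno1 136 CPM, with a median of 7.21% mitochondrial UMIs).

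**Figure D5:**
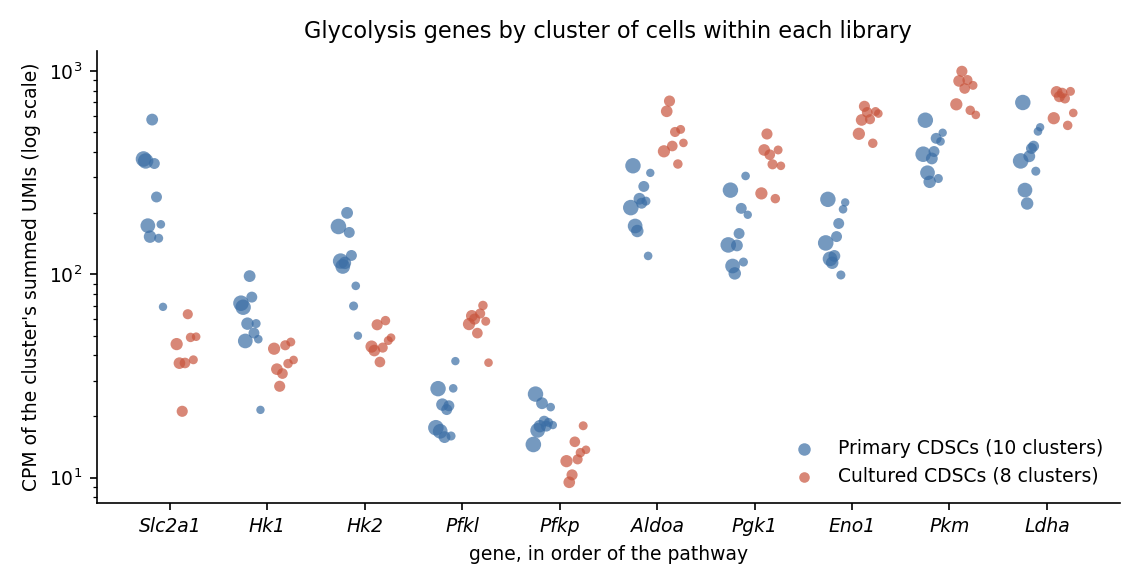
CPM (log axis) of each of the 10 genes in every cluster of at least 50 cells, for the primary (blue, 10 clusters) and the cultured library (red, 8 clusters); larger points hold more cells. The blue and red points are apart for Slc2a1, Aldoa, Eno1 and Pkm, though the counting intervals (not drawn) of the nearest points meet for Slc2a1 and Aldoa, and the points overlap for the other genes.

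Within the primary library Slc2a1, Hk1 and Hk2 were highest in another cluster than most later genes. Slc2a1, Hk1 and Hk2 were all highest in the cluster with Plet1 among its leading genes (1091 cells; 576.5, 98.0 and 200.4 CPM) and all lowest in the one led by Pknox2 and Zbtb16 (128 cells; 69.2, 21.5 and 49.9 CPM). In that lowest cluster the later genes summed to 1762 CPM, second only to 2107 CPM in the cluster led by Aoc2 and Acta2 (2452 cells), where Ldha stood at 699.5 and Pkm at 572 CPM. The other early genes did not follow the first 3, with Pfkl lowest in the cluster of Plet1 (15.8 CPM) and highest in that of Pknox2 and Zbtb16 (37.4 CPM), and Pfkp highest in that of Aoc2 and Acta2 (25.8 CPM). The cluster of Pknox2 and Zbtb16 also had the lowest sum of immediate early genes, at 3203 CPM where the other primary clusters had 11573 to 21660 CPM, and the highest median share of mitochondrial UMIs, at 3.46% where the others had 1.62% to 2.04%. The part of either in these levels was not tested. Its chondrocyte markers summed to 129860 CPM, the highest of the 10 clusters. The lowest sum of the later genes, 886 CPM, was in the cluster led by Bmp3 and Tll1 (1304 cells). The cells led by Pbk and Cenpf, whose division genes summed to 1954 CPM, had the most Pgk1 (304 CPM) and the least Aldoa (123 CPM) among primary clusters.

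Within the cultured library the sum of the 10 genes ran from 2433 CPM in the cluster led by Mmp13 and Csmd1 (401 cells) to 3790 CPM in the one led by Cmss1 and Lars2 (870 cells), a 1.56-fold range, where the primary clusters spanned 2.16-fold. At the finer resolution the order was reversed, at 4.10-fold in the cultured library, with the 53 cells led by Lars2 and Cfap157 at 960 CPM, and 2.42-fold in the primary one. The cluster led by Cmss1 and Lars2 (870 cells) was shallow, with a median of 1283.5 UMIs and 0.332% mitochondrial UMIs. Of the 8 clusters it had the lowest Slc2a1 (21.2 CPM) and the highest Aldoa, Pgk1, Eno1 and Pkm. Its cells held 5329385 UMIs, where all 795 cultured cells with under 5000 UMIs held 1215270, so these sums came mostly from its deeper cells. Those 795 cells had Slc2a1 at 45.3 CPM, Aldoa at 729 CPM and Pkm at 1122 CPM. The cells led by Aspm and Knl1, with division genes at 1656 CPM, had 427 CPM of Aldoa and 387 CPM of Pgk1. Hk1 spanned 28.1 to 46.5 CPM, Hk2 37.0 to 59.2 CPM and Ldha 540 to 793 CPM over the 8 clusters.

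The level of the genes differed between cells of different depth. The 10 genes summed to 1382 CPM in primary cells with under 5000 UMIs and to 2112 CPM in those with 20000 to 60000 UMIs. In the cultured library the sum was 4002 CPM under 5000 UMIs and 3159, 2994 and 3136 CPM in the 3 deeper bins, from 5000, 20000 and 60000 UMIs on. In the bin of 20000 to 60000 UMIs, which both libraries filled (1160 primary and 1601 cultured cells), Slc2a1 was at 323 and 50.3 CPM, Hk2 at 150 and 46.4 CPM, Eno1 at 169 and 565 CPM and Ldha at 474 and 681 CPM. All 10 genes kept the direction of their difference in this bin.

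Across thinned cells the later genes varied together only weakly, which in counts this sparse is a description and no finding. Of the 45 pairs among the 10 genes, Pearson's r of log(1 + UMIs) ran from -0.03 to 0.23 (median 0.04) over 10959 primary cells and from -0.04 to 0.34 (median 0.03) over 4543 cultured cells. The highest pairs were Pkm with Ldha in the primary and Eno1 with Ldha in the cultured library, while the summed early genes were at r = 0.07 and 0.12 with the summed later genes. All cells of a panel share one library, and the sum of the 10 genes was also at r = 0.24 (primary) and 0.09 (cultured) with the log of a cell's UMI total before thinning. The genes most like the summed 10 were Scrg1, Acan, Epyc, Col2a1, Ndufa4l2, Timp1, Cst3 and Mif in primary cells (r from 0.36 down to 0.30 among 3078 genes). The first 4 of them are cartilage genes. For the 5 early genes alone, singled out after their values were seen, they were Rcan1, Ifrd1, Errfi1, Junb, Tnfrsf12a, Cebpb, Trib1 and Phlda1 in primary cells (0.28 down to 0.21), among them the immediate early gene Junb, and in cultured cells no gene passed 0.10. For the summed 10 in cultured cells, the genes most like them were S100a6, Ppia, Ftl1, Mif, Ubb, Fam162a, Lgals1 and Ybx1 (0.42 down to 0.32 among 3614 genes). Mif, a cytokine gene, was on both lists for the summed 10. Within the largest cluster only 1 of the 8 primary and 4 of the 8 cultured genes stayed among the first 8, with Mif at 0.31 and Fam162a, a mitochondrial protein gene, at 0.30 in the cultured library.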

How the data were processed

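Single-cell RNA had been measured in 1 library of Primary CDSCs and 1 of Cultured CDSCs (10x 3′ chemistry). The authors counted UMIs with Cell Ranger 7.0.0, per the file headers, on reads aligned to mm10/GRCm38. The deposited matrices hold raw, unscaled UMI counts of each gene in each barcode. The annotation release was not given in the sources used here. Kept UMIs totalled 137148874 (primary) and 330129909 (cultured), so that 3 counts, the lowest level read, were 0.0219 and 0.00909 CPM.

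Counts of kept barcodes were summed per library and divided by the library total. The log2 ratio of the CPM was given with an exact conditional 95% interval, levels with exact Poisson and shares with exact Clopper-Pearson intervals, all of which cover counting error only. The treatment label gave the groups. The 10 genes were always named, and of the other lists genes that reached 10 CPM in at least 1 library. A few list genes and 1 leading gene of a cluster are not reported here. The members and lists were chosen with earlier results of these data known. The genes most like the 10 were the 8 with the highest r among those seen in at least 20% of thinned cells, without mitochondrial, ribosomal protein and glycolysis genes. Clusters came from Leiden on 2000 variable genes, 10 components and 20 neighbours at resolution 0.5 (scanpy 1.11.5, leidenalg 0.10.2), without 130 listed genes. The marker lists were not among those left out. Doublets stayed in, because Scrublet called 0 primary and 1 cultured barcodes and had not worked; leaving out the 1118 and 461 highest scores was an alternative. Other alternatives changed the filter, the total, the weight of cells, the scaling (TMM in edgeR 4.0.16, median-of-ratios factors in DESeq2 1.42.0, run in R 4.3.3, both used for scaling only), the expression limit, the thinning depth and the cluster resolution. Gene positions were matched by identifier to GENCODE M21 (GRCm38). The ratios and intervals were tested on simulated data, and the thinning on a subset of the primary cells, with Python 3.11.15, numpy 2.4.6 and scipy 1.17.1.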

Additional observations from a re-analysis of the deposited data

How the results depend on the processing

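All 10 glycolysis genes kept their direction in each of the 8 alternatives that recomputed them (80 of 80 log2 ratios). The log2 ratio of Slc2a1 ran from -3.09 to -2.75 and that of Eno1 from 1.56 to 1.89. The number of the 10 genes at least 2-fold higher became 5 where each cell weighed the same, Pgk1 and Pkm being added, 4 without mitochondrial and ribosomal protein genes in the total, and 2 at 5000 UMIs or more and with either scaling, Aldoa being lost. The median log2 ratio of the 10 genes became 0.863 without mitochondrial and ribosomal protein genes in the total, 0.914 where each cell weighed the same, 0.607 with TMM and 0.584 with median-of-ratios scaling. These 2 scalings lowered the median of all genes by 0.21 and 0.24, and the share of higher among all 2-fold calls went from 68.5% to 58.5% and 57.3%. Hk1 passed the limit for lower genes, at -1.02, with median-of-ratios scaling. The share of all UMIs held by the 10 genes in the primary library became 0.203% at 5000 UMIs or more, 0.250% without mitochondrial and ribosomal protein genes and 0.190% where each cell weighed the same. In the cultured library it became 0.310% over every barcode, 0.313% at most 5% mitochondrial UMIs (0.3129%) and without the highest doublet scores (0.3128%), 0.402% without mitochondrial and ribosomal protein genes and 0.318% with equal weights. Over all genes, the counts at least 2-fold higher and lower, 2482 and 1143, became 680 and 404 at 100 CPM or more and 4594 and 3628 without a limit on low values, and the lower count became 1936 at 1 CPM. Of 44 cluster extremes, 7 moved over 1.5 times at resolution 1.0, all in the cultured library through its cluster of 53 cells. No paired analysis was possible because each group had 1 library.

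The depth did not limit the 10 genes, the lowest of which, Pfkp, had 2747 and 4172 counts. The comparison of the libraries is limited by their number.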

Other observations

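The barcodes that the filter removed carried the same genes at other levels. In the 150 primary barcodes left out, which had a median of 12.1% mitochondrial UMIs, Slc2a1 was at 457 CPM, Hk2 at 219 CPM and Eno1 at 66.6 CPM, where the lightest cells used (under 5000 UMIs) had 197, 89.98 and 112 CPM. In the 5460 cultured barcodes left out, with a median of 775 UMIs, Slc2a1 was at 53.5 CPM, Hk2 at 40.0 CPM and Eno1 at 469 CPM. The direction between the libraries was the same in these barcodes for the 3 genes.

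Paralogues that are known from other tissues, and the gluconeogenesis genes Fbp1 and Fbp2, were scarce in both libraries. All were singled out here after their values were seen. Their counts are raw, and the cultured library held more UMIs in total, so scarce genes could still differ between the libraries. Pklr, the pyruvate kinase of liver, had 1 and 3 counts, and Pgk2, the testis form, 0 and 0. Pgam2, the muscle form, had 5 counts in primary and 285 in cultured CDSCs. Fbp1 and Fbp2, which reverse the phosphofructokinase step, had 568 and 357 counts in primary and 15 and 42 in cultured cells.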
